A study of Mus musculus with 2 samples.

Results

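The DNA damage kinases set comprised 9 genes for the protein kinases and chromatin mediators that signal DNA damage, among them substrates of the phosphatase Wip1. The kinases were Atm, Atr, Prkdc, Chek1 and Chek2, and the other genes were H2ax (older symbol H2afx), Mdc1, Trp53bp1 and Nbn, so not all of the products are kinases. Members were all probe sets of the array whose only annotated gene was one of these, which gave 21 of 45037 probe sets. A single gene, H2ax, was matched through its older symbol, and no probe set naming a member together with another gene was found. The data were total RNA from haematopoietic stem cells, which live in bone marrow and replenish all blood lineages, on 1 Affymetrix array of Wip1 knockout mice and 1 array of wild-type mice. Both samples came from animals of 3 months and are otherwise labelled alike. The sources used here do not state strain, sex, the number of animals pooled, the sort or the structure of the knockout allele.

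These proteins form a relay. ATM is activated at double-strand breaks with the help of the MRE11-RAD50-NBN complex, ATR responds to single-stranded DNA at stalled replication forks, and DNA-PKcs, the product of Prkdc, acts with the Ku proteins at broken ends. ATR mainly activates CHK1 and ATM mainly activates CHK2, while the histone variant H2AX is phosphorylated around a break and recruits MDC1 and then 53BP1, the product of Trp53bp1. Wip1 is known to remove phosphates from several of these proteins, ATM, CHK1, CHK2 and H2AX among them, which ends the signal. An expression array measures transcript levels and says nothing on phosphorylation.

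With 1 array per genotype there was no replicate, so no test across samples was possible and each difference has no replicate check. Values are the deposited intensities, on a linear scale, and differences are log2 knockout minus wild type after the arrays had been centred on each other. A probe set was called detected when at least 1 array exceeded its own median over all probe sets, which was 25.9 on the knockout array and 25.2 on the wild-type array. The file's single measure of spread is how far the probe sets of a gene disagree. Their SD was 0.22 on the log2 scale (1.16-fold), from 5084 genes that had 2 or more detected probe sets. That SD holds no variation between animals or arrays. In total 2535 probe sets held the same value on both arrays, none of them a member's, so how the small differences were shaped by the deposited summarisation is not settled.

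The genotype label could not be checked on these arrays. Ppm1d, the gene for Wip1, had 160 in the knockout and 167 in the wild type in one probe set, and 59.0 in the knockout and 55.6 in the wild type in the other. Its log2 differences of -0.05 and 0.10 lay within the SD between probe sets, and the sources used here do not say whether they cover the deleted exons. Of the stem cell markers, all 8 analysed were above the median on both arrays, with summed intensities of 7465 in the knockout and 5157 in the wild type. After centring, 6 counted as higher and 2 as lower in the knockout, where 50.0% of all detected genes were lower. One of those 6, Fgd5, held the same intensity of 177 on both arrays, and its 0.01 is only the centring shift. Flt3, a receptor of multipotent progenitors, gave the largest part of that gap, with 2112 in the knockout and 892 in the wild type (1.26). Hlf, also on that list, had 1270 in the knockout and 788 in the wild type (0.70, with 0.84 in its other detected probe set). Slamf1, the gene for CD150, had 144 in the knockout and 230 in the wild type (-0.66). Its 3 detected probe sets ran from -0.66 to -0.13. The named stem cell markers thus went both ways. Markers of T and natural killer cells summed to 112 in the knockout and 123 in the wild type, yet 3 of 4 were above the median, so detection alone does not show expression. Xist, the RNA of the inactive X chromosome, had 3778 in the knockout and 6228 in the wild type in its brightest probe set, and the Y-linked Eif2s3y had 149 in the knockout and 31.8 in the wild type. These sex-linked transcripts thus differed between the samples, and their part in the values below was not tested. Summed intensities of the other marker lists were 4634 in the knockout and 6019 in the wild type for myeloid cells, 286 in the knockout and 252 in the wild type for B cells, and 701 in the knockout and 782 in the wild type for erythroid cells. The B cell sum was mostly Cd79b (173 in the knockout and 146 in the wild type). For the erythroid sum it was mostly Tfrc (560 in the knockout and 625 in the wild type). The myeloid sum was mostly Mpo, the neutrophil myeloperoxidase gene (3665 in the knockout and 5498 in the wild type). The myeloid list went both ways, with 2 of 4 detected markers higher and a median of 0.07. Csf1r, the macrophage growth factor receptor gene, had 770 in the knockout and 294 in the wild type in its brightest probe set (1.40). Its 3 detected probe sets were all higher in the knockout but ran from 0.35 to 1.40.

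All 9 members were detected, by 16 of their 21 probe sets, and no member differed by 1.5-fold. Of the 9 genes, 7 were lower and 2 higher in the knockout, each represented by its brightest probe set, and the median difference was -0.16. Among 11440 detected genes, 50.0% were lower and the median was 0.00015. At least 1.5-fold higher were 2.30% of all detected genes and at least 1.5-fold lower 1.55%, against 0 of 9 members either way. Past 2-fold lay 0.455% (higher) and 0.210% (lower) of all detected genes, and again 0 members. Chek1, Mdc1 and Nbn were lower by more than the SD between probe sets, which 16.2% of detected genes also were, and Trp53bp1 was higher by more than it, as were 17.2%. These shares describe 2 arrays, and fewer cells of a type and less RNA per cell cannot be told apart in such samples.

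**Figure D1:**
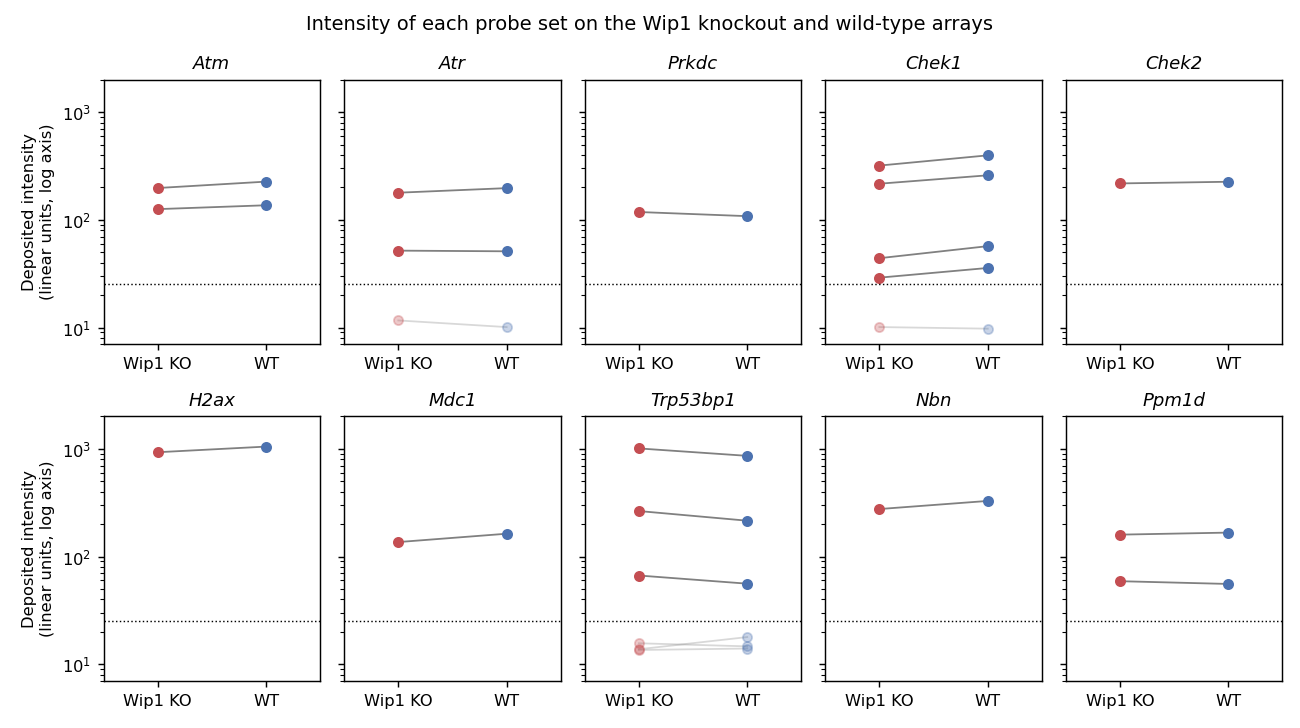
Deposited intensity (linear units on a log axis) of every probe set of the 9 members and of Ppm1d on the Wip1 knockout array (red, left) and the wild-type array (blue, right), with lines joining one probe set and the dotted line at the wild-type median of 25.2. Pale probe sets were under the median on both arrays; all detected Chek1 probe sets slope up towards the wild type and all detected Trp53bp1 probe sets slope down.

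The promoters of Chek1, Mdc1 and Trp53bp1 are shown because Chek1 and Trp53bp1 were the members furthest below and above 0, and Mdc1 was lower and held a match to a motif of replication genes. Each sequence is the 250 bases before the transcript start of the RefSeq promoter table (GRCm38.p6), 5′ to 3′ on the strand of the gene. Of the 9 members, 6 had an entry. Capitals mark matches on either strand to 5 motifs: the E2F site (TTTCCCGC, TTTGGCGC, TTTCGCGC or TTTGCCGC), the CCAAT box (CCAAT), the GC box (GGGCGG), the cyclic AMP response element (TGACGTCA) and the cell cycle homology region (TTTGAA). None of the marked matches overlap.
Chek1, chr9:36726659-36726908, minus strand: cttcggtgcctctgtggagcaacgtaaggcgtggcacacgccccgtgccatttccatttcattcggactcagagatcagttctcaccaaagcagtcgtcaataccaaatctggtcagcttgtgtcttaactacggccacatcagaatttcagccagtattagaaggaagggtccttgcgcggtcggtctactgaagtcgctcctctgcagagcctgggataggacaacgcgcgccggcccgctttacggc
Mdc1, chr17:35841248-35841497, plus strand: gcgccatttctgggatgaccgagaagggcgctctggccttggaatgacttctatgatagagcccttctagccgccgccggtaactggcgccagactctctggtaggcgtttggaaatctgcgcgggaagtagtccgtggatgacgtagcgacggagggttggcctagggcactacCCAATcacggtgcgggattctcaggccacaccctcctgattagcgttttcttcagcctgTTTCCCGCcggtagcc
Trp53bp1, chr2:121271408-121271657, minus strand: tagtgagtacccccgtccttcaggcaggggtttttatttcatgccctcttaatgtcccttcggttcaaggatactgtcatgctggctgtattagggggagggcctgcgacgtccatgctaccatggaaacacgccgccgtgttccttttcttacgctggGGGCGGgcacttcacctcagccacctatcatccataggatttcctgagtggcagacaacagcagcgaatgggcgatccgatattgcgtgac

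The Chek1 window held none of the 5 motifs. Mdc1 had an E2F match whose first base lay at -16 from the start and a CCAAT box at -75, and Trp53bp1 had a GC box at -91. For Trp53bp1, the start used lies inside the annotated gene, which extends further upstream. Of the 6 member promoters, Chek2 and Mdc1 held an E2F match, against 1.87% of 32536 promoter windows. A CCAAT box occurred in those of Atm, Chek2 and Mdc1 (33.8% of all windows) and a GC box in those of Atm, Atr and Trp53bp1 (33.0%). The cyclic AMP response element (1.56% of all windows) and the cell cycle homology region (15.8%) were in none of the 6. The 2 members with an E2F match differed by -0.24 (Mdc1) and -0.04 (Chek2). A match is a description of these letters and does not show that a factor binds there.

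Among the 3 apical kinases, Atm and Atr were slightly lower and Prkdc slightly higher, each within the SD between probe sets. Atm, the kinase of the double-strand break response, had intensities of 197 in the knockout and 226 in the wild type in its brightest probe set (1428830_at). Its other probe set (1421205_at) gave 126 in the knockout and 137 in the wild type. Both were lower in the knockout (log2 differences -0.18 and -0.11). Atr, the kinase of replication stress, had 179 in the knockout and 197 in the wild type in its brightest probe set (-0.13). A dimmer one gave 51.8 in the knockout and 51.0 in the wild type (0.03), and the remaining probe set was under the median on both arrays. The detected probe sets of Atr therefore did not share a direction. Prkdc, which encodes the catalytic subunit of DNA-PK and is needed to join antigen receptor gene segments, had 118 in the knockout and 108 in the wild type in its only probe set. This made it 1.10-fold higher in the knockout (0.14).

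The start of Atm lies head to head with that of Npat, a gene needed for histone gene transcription in S phase, at a distance of 376 bases in the RefSeq promoter table. Divergent neighbours within 1000 bases were looked up once the members' values were known. The brightest probe set of Npat had 102 in the knockout and 161 in the wild type (-0.65). Its other detected probe set had 38.2 in the knockout and was under the median in the wild type, a difference of at least 0.61. The probe sets of Npat thus disagreed in sign, and no direction for the gene can be read from them. Of the other members with a promoter entry, Atr alone had a neighbour in this search, with no detected probe set.

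Chek1 was the member with the lowest value, and the paired checkpoint kinase gene Chek2 was nearly equal on both arrays. Chek1 encodes the effector kinase of ATR, which delays mitosis and guards replication forks. Its brightest probe set (1449708_s_at) had 319 in the knockout and 397 in the wild type, 1.23-fold lower in the knockout. The next (1450677_at) had 217 in the knockout and 259 in the wild type. The probe sets 1420032_at and 1439208_at were dim on both arrays. They had 44.0 (knockout) and 57.0 (wild type), and 29.0 (knockout) and 35.7 (wild type). All 4 were lower in the knockout, with log2 differences from -0.36 to -0.25 and a mean of -0.30 ± 0.05 (SD, n = 4 probe sets of the same RNA). The fifth probe set was under the median on both arrays. Of the 5, 3 were designed on the same source sequence, 2 of them detected, so they do not count as separate measurements.

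Of the 2065 genes that had 3 or more detected probe sets, 21.2% were lower in all of them, and in 3.05% all were lower by more than the SD between probe sets, a class that held Chek1. Chek1 is known to be transcribed with the replication genes. Of the proliferation markers, 4 of 6 were lower in the knockout, against 50.0% of all detected genes, with a median of -0.11. Their summed intensities were 15506 in the knockout and 16689 in the wild type. Pcna, the sliding clamp of DNA polymerase, gave the largest part of that gap, with 6452 in the knockout and 7229 in the wild type (-0.15). Mki67 had -0.12, Top2a had 0.0044 and Mcm6 had 0.03. The brightest probe set of each marker stayed within the SD between probe sets. The other detected probe set of Top2a had 0.28, higher in the knockout by more than that SD. The part of proliferation in the Chek1 value was not tested. Chek2, the effector kinase of ATM, had 218 in the knockout and 226 in the wild type in its only probe set, a difference of -0.04.

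**Figure D2:**
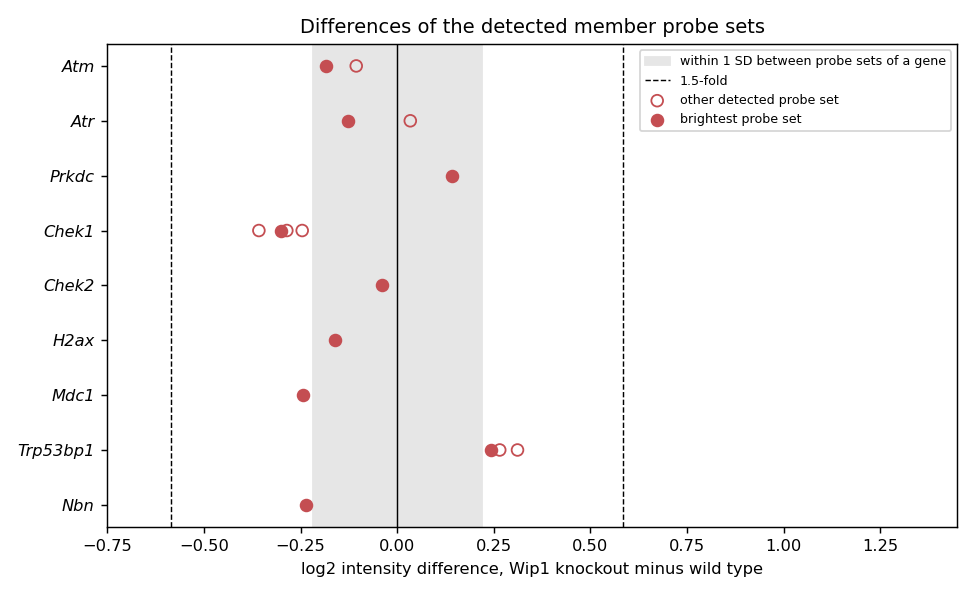
Log2 intensity difference (knockout minus wild type, horizontal axis) of each detected probe set of the 9 members, with filled points for the brightest probe set of a gene and open points for the others. The grey band spans 1 SD between probe sets of a gene (0.22) and the dashed lines mark 1.5-fold. All Chek1 and Trp53bp1 points lie outside the band on opposite sides, and the single points of Mdc1 and Nbn lie to its left.

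The chromatin genes did not share a direction: H2ax, Mdc1 and Nbn were lower and Trp53bp1 was higher. H2ax, which encodes the histone variant whose phosphorylated form marks breaks, had 930 in the knockout and 1050 in the wild type in its only probe set (-0.16), within the SD between probe sets. Mdc1 encodes the adaptor that binds phosphorylated H2AX, and had 136 in the knockout and 163 in the wild type (-0.24). Nbn, the subunit that brings the MRE11 nuclease complex to ATM, had 276 in the knockout and 328 in the wild type (-0.24). Mdc1 and Nbn were thus 1.18-fold lower in the knockout, each by a single probe set with no second measurement.

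Trp53bp1 encodes 53BP1, which shields broken ends and favours end joining, and it was higher in the knockout in each of its 3 detected probe sets. The brightest (1426956_a_at) had 1009 in the knockout and 861 in the wild type. The next (1426957_at) had 265 in the knockout and 215 in the wild type, and the dimmest (1435609_at) had 66.7 in the knockout and 56.0 in the wild type. The log2 differences ran from 0.24 to 0.31, with a mean of 0.27 ± 0.04 (SD, n = 3 probe sets of the same RNA). Its other 3 probe sets were under the median on both arrays and give no direction. The 2 brightest were designed on one source sequence. All detected probe sets were higher in 22.6% of those 2065 genes, and higher by more than the SD between probe sets in 4.26%, a class that held Trp53bp1. Chek1 and Trp53bp1 were the members with the most detected probe sets, and in both the detected probe sets spanned less than the SD of 0.22.

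**Figure D3:**
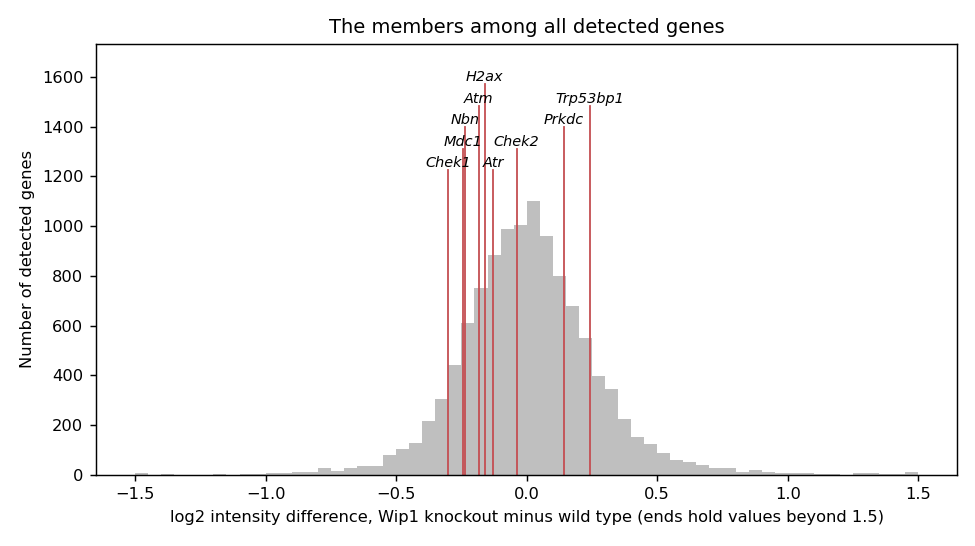
Histogram of the log2 intensity difference (knockout minus wild type) of 11440 detected genes, with the number of genes on the vertical axis and the end bins holding values beyond 1.5. Red lines mark the 9 members, which lie between -0.30 (Chek1) and 0.24 (Trp53bp1), inside the bulk of the histogram.

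Partners of these proteins were read from 6 lists with 56 different genes, of which 50 were detected. A single gene of the 50 passed 1.5-fold, and it was higher in the knockout, against 2.30% of all detected genes. No gene of the 50 was 1.5-fold lower, against 1.55% of all detected genes. In all, 28 of the 50 were lower and 22 higher in the knockout after centring, with a median of -0.05. Of all detected genes 50.0% were lower, with a median of 0.00015. One of those 22, Babam1, held the same intensity of 439.5 on both arrays, and its 0.01 is only the centring shift. Of the 50 genes, 9 were lower by more than the SD between probe sets, near the 16.2% of all detected genes, and 3 were higher by more than it, against 17.2% of all detected genes.

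The list of break sensing and ATM activation had 4 of 7 members lower in the knockout, against 50.0% of all detected genes, and a median of -0.05. Atmin, an ATM cofactor, had the largest difference of the list, with 63.4 in the knockout and 91.2 in the wild type (-0.51), but its other probe set gave 67.4 in the knockout and 70.2 in the wild type (-0.04). Rnf168, the ubiquitin ligase that prepares chromatin for 53BP1, had -0.15 and -0.26 in its 2 detected probe sets. The list of ATR activation had 7 of 13 members lower, near the same 50.0%, and a median of -0.05. Etaa1, an activator of ATR at RPA-coated DNA, had 91.5 in the knockout and 136 in the wild type in its only detected probe set (-0.56), just short of 1.5-fold. Rpa3, the small subunit of RPA, had 805 in the knockout and 994 in the wild type (-0.29).

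Among DNA-PK partners and end joining factors, 3 of 4 detected members were higher in the knockout and 1 was lower. Of all detected genes, 50.0% were lower. Of the other 4 listed genes, 3 were under the median on both arrays and 1 was not analysed here. Poll, a gap-filling DNA polymerase of end joining, had 70.7 in the knockout and 47.2 in the wild type (0.60, 1.51-fold higher by its only detected probe set). Xrcc6, which encodes Ku70, had 383 in the knockout and 300.3 in the wild type (0.36). Its Ku80 partner gene Xrcc5 was dimmer, with 83.5 in the knockout and 100 in the wild type (-0.25). The genes of the Ku dimer thus lay on opposite sides of 0, each by its only detected probe set. Of the chromatin mediators at breaks, 6 of 9 were lower, against that same 50.0%, with a median of -0.11. Brcc3, a deubiquitinase of the BRCA1-A complex, had -0.27 in its brightest probe set and 0.13 in another, and the recombination gene Brca2 had -0.22 in its only detected one.

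Cell cycle targets of the checkpoint kinases were evenly split, with 4 of 8 lower, like the 50.0% of all detected genes, and a median of 0.0029. Wee1, the kinase that holds CDK1 inactive, had 488 in the knockout and 577 in the wild type (-0.23, with -0.09 in its other probe set). Mdm4, a p53 inhibitor that is phosphorylated upon damage, had 287 in the knockout and 246 in the wild type (0.24, with 0.05 and at least 0.21 in the others). Of the other phosphatases that act on these proteins, 6 of 9 were lower in the knockout, against that 50.0%, with a median of -0.10. Ppp1cb, a catalytic subunit of protein phosphatase 1, had differences from -0.36 to -0.06 in 4 detected probe sets, and Ppp5c, which is known to act in ATM and ATR signalling, had differences from -0.16 to -0.06 in 3. No phosphatase of the list was past 1.5-fold.

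**Figure D4:**
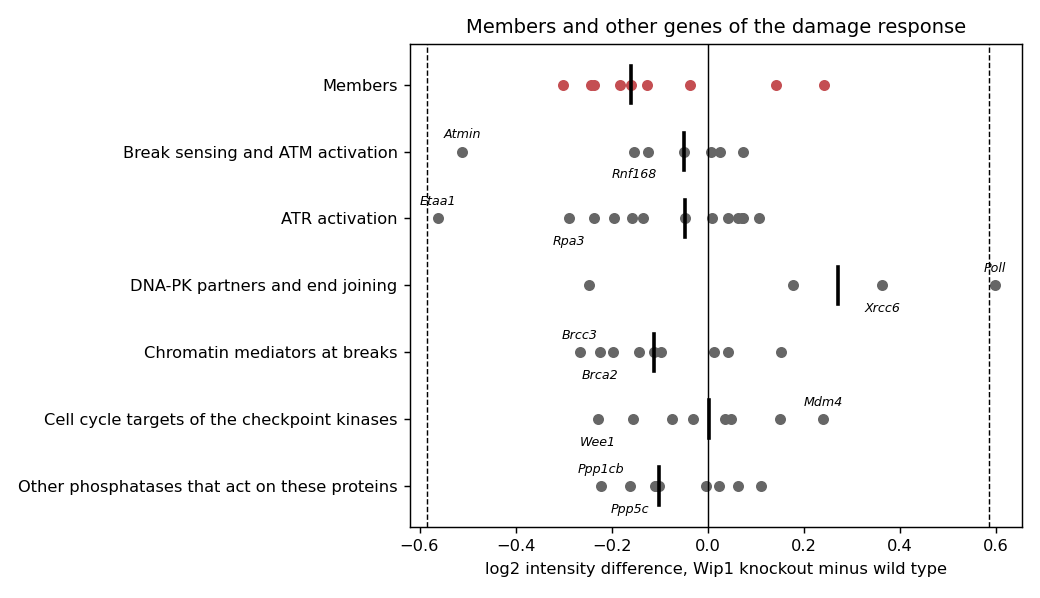
Log2 intensity difference (knockout minus wild type, horizontal axis) of each detected gene among the members (red, top) and the 6 lists of other damage response genes (grey), with black bars at the medians and dashed lines at 1.5-fold. The member median is -0.16; the end joining list, with 4 detected genes, has the only gene past a dashed line, Poll.

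The members' directions were the same under the processing choices tried, but not every choice could change every member. Under 11 alternatives each member kept its sign, 7 of 9 were lower every time, and the members' median stayed between -0.17 and -0.13. Prkdc, Chek2, H2ax, Mdc1 and Nbn had no other probe set, so the choices of probe sets could not move them. Leaving out probe sets by the ending of their names also left Atm and Atr as reported. Each of these had 2 detected probe sets, so their mean and median were equal. Atr came nearest to 0 among members other than Chek2, at -0.05 as the mean or median over its probe sets. Chek1 ran from -0.32 to -0.25 and Trp53bp1 from 0.23 to 0.31. Centring on all probe sets removed a shift of 0 and so gave the same values as no centring, which leaves 10 distinct alternatives. For the members, having no floor and no filter also gave the values of no centring. These ranges come from the same 2 arrays and say nothing on how other animals would differ.

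**Figure D5:**
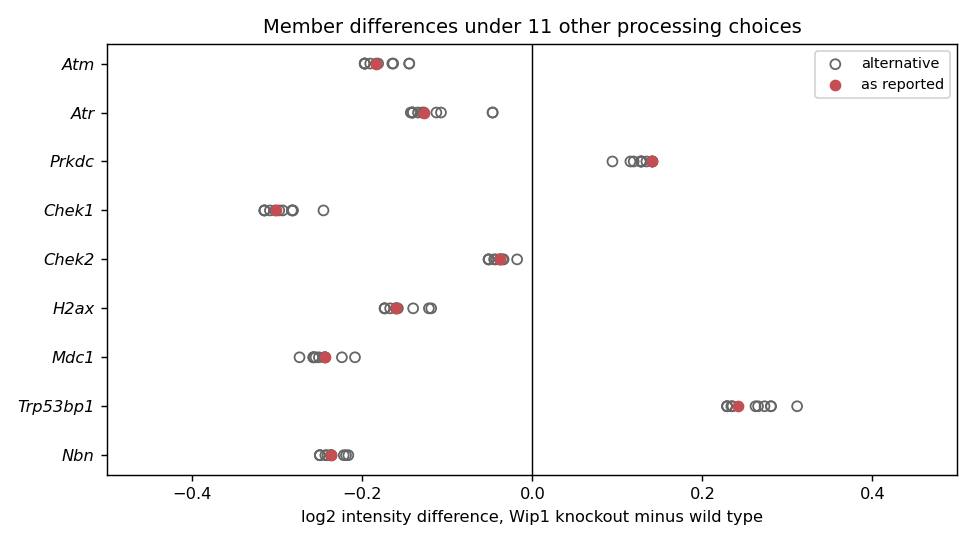
Log2 intensity difference (knockout minus wild type, horizontal axis) of each member as reported (red) and under 11 other processing choices (open circles), not all of which gave distinct values. Prkdc, Chek2, H2ax, Mdc1 and Nbn had no other probe set and could not move under the choices of probe sets. No member crosses 0, Chek1 stays between -0.32 and -0.25, and Trp53bp1 stays between 0.23 and 0.31.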

How the data were processed

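The authors deposited summarised intensities, on a linear scale, with a single value for a probe set on each array. MAS5 is the only program named, per the submitters' processing notes; its version and the scaling are not stated in the sources used here. Probe sets were named through the platform annotation: 34945 had 1 gene, 932 had several and 9160 were not listed. Of the first, 34741 matched the RefSeq gene table (GRCm38.p6), which gave symbols and gene positions, and 18193 genes resulted.

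Intensities were converted to log2 and centred on the median difference of detected gene probe sets, which removed a shift of -0.01. A gene took its probe set with the highest mean. Values under an array's median were set to it, and a difference against one is a bound. The number of arrays limits the precision. The procedure was checked on simulated data (Python 3.11.15, pandas 2.3.3). The simulated differences were larger than that of any member and were placed in bright genes only. The check therefore does not cover differences of the members' size.

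The members and lists were chosen with earlier results of these data known. Named were all members, Ppm1d and the 2 genes of each list with the largest difference; markers, Xist, Eif2s3y, Xrcc5 and Npat were added beside them after their values were seen. Listed genes with no value were not analysed here. Alternatives covered centring, quantile and loess normalization, floors, an offset and the probe sets used.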

Additional observations from a re-analysis of the deposited data

How the results depend on the processing

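Results were recomputed under 11 alternatives (10 distinct, since centring on all probe sets equalled no centring). Those for the members and the other pathway genes moved by under 1 SD between probe sets. That is a wide limit, since the SD of 0.22 exceeds both medians and the differences of Atm, Atr, Prkdc, Chek2 and H2ax themselves. The median of the pathway genes stayed between -0.08 and -0.0032, and 0 members passed 1.5-fold each time. The alternatives on the probe sets used could not move Prkdc, Chek2, H2ax, Mdc1 and Nbn, since these genes had no other probe set. The number of all detected genes past 1.5-fold was 440, and fell to 204 with a floor at the 75th percentile, which left 7209 genes, and to 251 with the median intensity added before log2, which shrinks differences of dim genes. Over the other alternatives it reached at most 633, with no floor and no filter, which kept 18193 genes in place of 11440. No paired analysis was possible because each genotype had 1 array. No array could be left out for the same reason. Signal near the median limits the dimmest probe sets, among them 1439208_at of Chek1.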
